A study of Mus musculus with 20 samples.

Results

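Transcription factors that pattern the mesoderm and the limb were followed across 7 clonal fibroblast lines. The group was fixed by gene symbol and held 46 genes of the T-box, TALE, paired-type, LIM, MSX, DLX, engrailed, forkhead, sine oculis (Six2, Six4 and Six5), bHLH and SNAI families, with the EYA cofactors of the sine oculis factors. All 46 of the 46 had at least 1 probe set on the array, 93 probe sets in all, among 18193 genes measured. The lines were cloned from Swiss 3T3, an immortalized mouse embryo fibroblast strain, so every line stands for 1 clone. Preadipose lines, which can become fat cells, were Swiss 2, Swiss 8 and Swiss 9, with 3 arrays each, and Swiss 19, with 2 arrays. Non-adipogenic lines were Swiss 3, Swiss 5 and Swiss 22, with 3 arrays each. Cells of both classes grew in the same medium with 10% bovine serum, were not induced to differentiate and were taken while still dividing.

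Patterning factors are DNA-binding proteins that give embryonic cells a position. In the limb bud, TALE factors such as Meis1 mark the part near the trunk, Tbx5, Tbx4 and Pitx1 separate forelimb from hindlimb, and Prrx1, Shox2 and Twist factors act in the mesenchyme that forms bone, cartilage and connective tissue. Fibroblasts in culture keep part of such a pattern, and fat depots of the mouse differ in it, Tbx15 being a known example.

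Levels are given as scaled intensity, in which every array was scaled to a trimmed mean of 500. The value of a line is the mean ± SD over its arrays. A gene was counted as above background in a line when it lay over the 95th percentile of bacterial controls that had not been spiked in, a limit of 76.9 to 144 depending on the line. Scaled intensity was not adjusted for how well a probe set hybridizes, so no level is set against that of another gene. Tests were run on log2(intensity + 32) after quantile normalization. The 32 was added to unscaled intensities, whose array medians were 4.1 to 23. It made log2 differences smaller than the folds, most of all in dim genes but also in genes as bright as Shox2. The labels do not say that replicate arrays stand for separate cultures, and tests among lines therefore measured array spread alone, which may be technical.

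The arrays differed in brightness, with means of 25.6 to 156.7 before scaling. By the hybridization spikes, 11 arrays were dim, made up of every Swiss 2, Swiss 8 and Swiss 9 array with 2 from Swiss 3, and 9 were bright, made up of every Swiss 19, Swiss 5 and Swiss 22 array with 1 from Swiss 3. Values within each part stand beside the class differences. In the dim part Swiss 3 was the only non-adipogenic line, and in the bright part Swiss 19 the only preadipose line. Within a part, a class difference therefore cannot be told apart from a trait of that 1 clone, and the calls there rest on it. All 9 fibroblast markers fixed for the check were above background in all 7 lines. Of 39 measured markers of muscle, cartilage, bone, endothelium, leukocytes, epithelium and nerve, 28 were above background in at least 1 line and 11 in none, among them Myog, Myf5, Pecam1, Ptprc, Cdh1 and Snap25. The 10 above background in all 7 lines were Des, Acta1 and Ckm of muscle, Acan of cartilage, Sp7 of bone, Cd68 and Csf1r of leukocytes, Epcam and Krt8 of epithelium and Sox10 of nerve. Epcam lay between 388 and 680 in preadipose lines and between 518 and 825 in non-adipogenic lines, and Csf1r between 568 and 735 in preadipose lines and between 428 and 499.6 in non-adipogenic lines. None of the 39 was called between the classes, and their part in the results was not tested.

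Most patterning factors were above background in at least 1 line on the probe set used, the brightest of each gene. Other probe sets of a gene could differ. For Tcf21, Tbx5, Pitx1, Foxf2, Msx2 and Tbx4 the other one was above background in no line, and neither was any other of Hand2. Of the 46, 26 were above background in all 7 lines, 15 in some lines and 5 in none, and these 5 were Tbx2, Alx1, Alx4, Lhx8 and Eya2. For comparison, 56.3% of all genes were above background in every line, near the 56.5% of the 46. In at least 1 line it was 83.4% of all genes and 89.1% of the 46. Between the classes, 4 of the 46 passed the test (limma on 7 line means, adjusted p below 0.05 over all genes): Foxa2 was higher in preadipose lines, and Tbx15, Meis1 and Shox2 were lower. Of all 18193 genes, 1.53% passed, 0.583% higher and 0.951% lower. The other 42 did not pass. The median log2 difference was -0.03 over the 46 and 0.0033 over all genes. An unadjusted p below 0.05 in this test was found for 8 of the 46 (17.4%) and for 15.6% of all genes.

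The test used the clonal line as the replicate and was sensitive to the lines entered and to the scaling. The 4 calls fell to 0 without Swiss 8, Swiss 3 or Swiss 22, to 1 without Swiss 2 or Swiss 5 and to 2 without Swiss 9, while leaving out single arrays left 3 or 4. They fell to 0 with arrays centred on their medians or not normalized, with the spike level as a covariate and within either brightness part, and to 3 with brightness as a block.

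**Figure D1:**
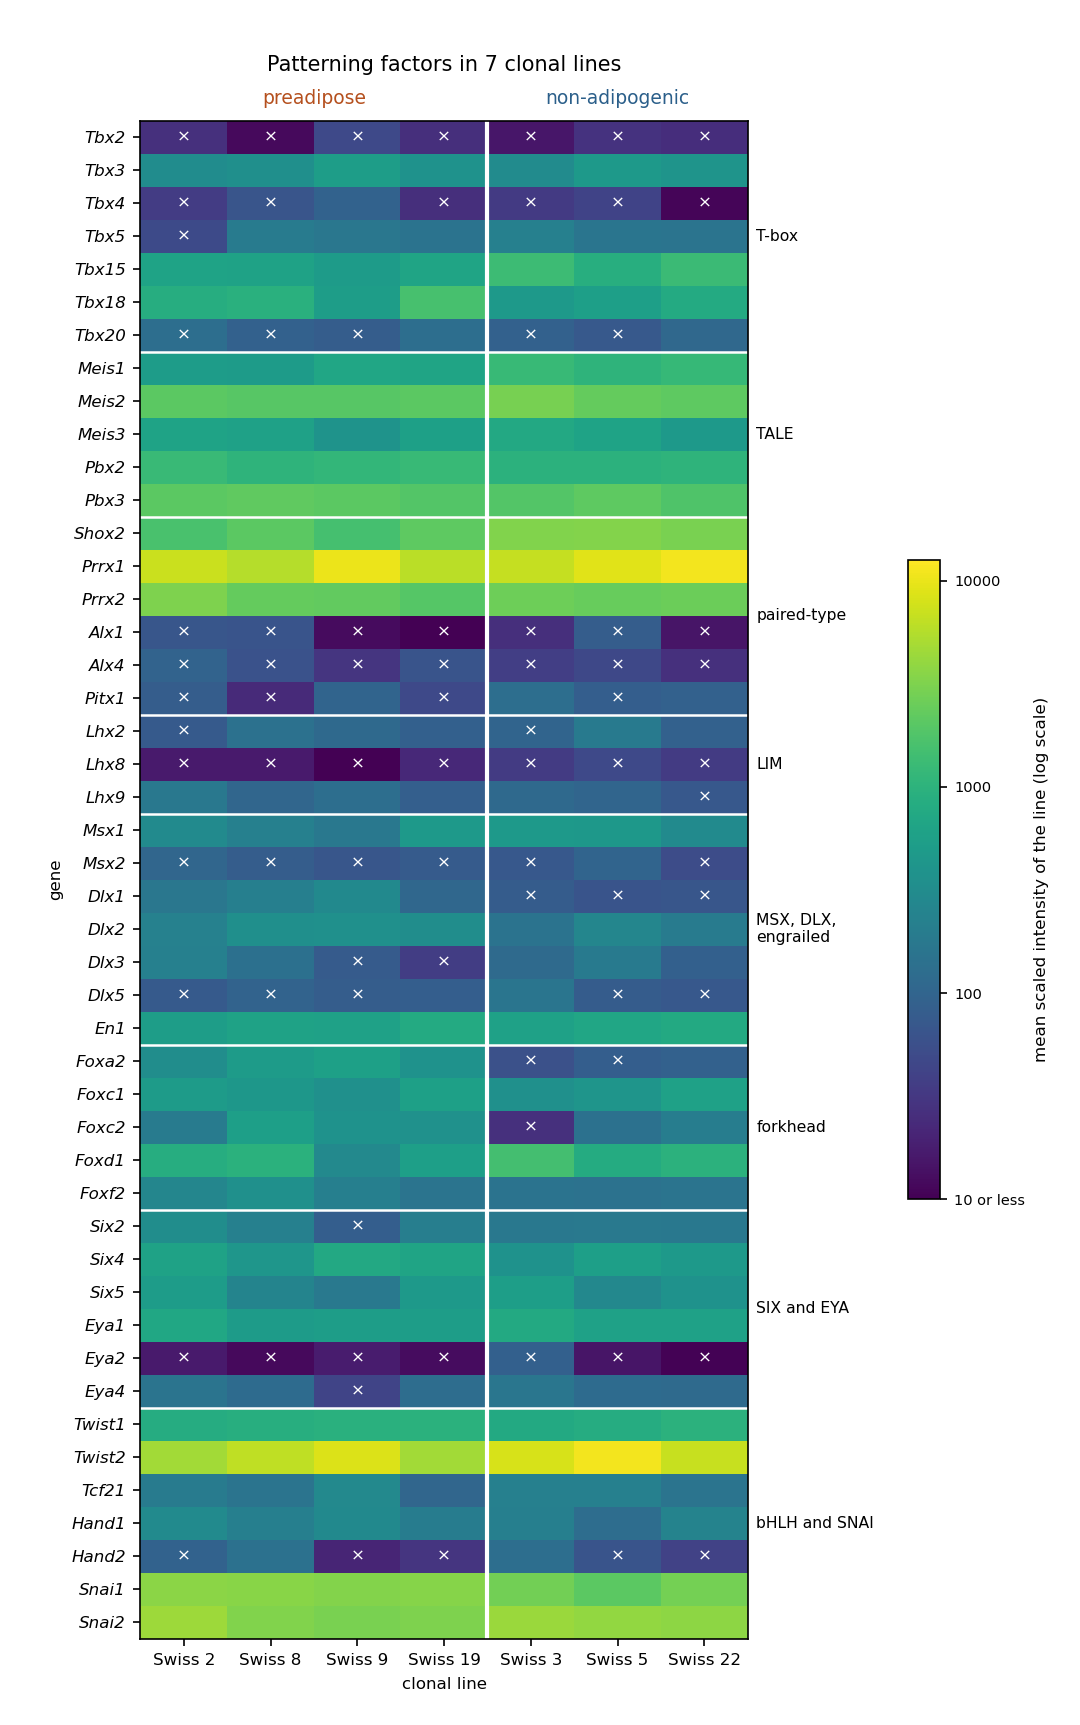
Mean scaled intensity (colour, log scale) of the 46 patterning factors (rows, by family) in 4 preadipose lines (left of the white line) and 3 non-adipogenic lines (right). A cross marks a line in which the gene was not above background. Prrx1 and Twist2 were bright in all lines, while 5 genes, such as Tbx2 and Lhx8, carry a cross in every line.

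Among T-box factors, Tbx15 fell in preadipose lines and Tbx18 varied from clone to clone. Tbx15, which shapes the skeleton of the head, trunk and limbs in the mouse, had preadipose levels of 634 ± 127 (Swiss 2), 609 ± 28.5 (Swiss 8), 499 ± 51.9 (Swiss 9) and 644 ± 49.8 (Swiss 19), against non-adipogenic levels of 1329.9 ± 122 (Swiss 3), 879.6 ± 71.7 (Swiss 5) and 1293 ± 97.1 (Swiss 22). The lowest, median and highest array stood at 456, 595 and 740.3 on the 11 preadipose arrays, against 800.5, 1231 and 1442 on the 9 non-adipogenic arrays. The arrays of the classes did not overlap, and within the non-adipogenic class Swiss 5 lay below both other lines. The class means were 597 ± 66.4 in preadipose lines (SD, n = 4 lines) and 1167 ± 250.01 in non-adipogenic lines (SD, n = 3 lines). This was 1.96-fold lower, with a log2 difference of -0.58 ± 0.10 (SE; limma, adjusted p = 0.0469). The difference was -0.70 within the dim arrays and -0.57 within the bright arrays. With brightness as a block the adjusted p was 0.0511. Without 1 line it was 0.0270 when Swiss 5 was left out and 0.0573 to 0.169 when any other line was, and without 1 array it was above the threshold for 6 of the 20 arrays, at most 0.0668. A second Tbx15 probe set gave -0.32.

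Tbx18, a factor of the epicardium, the ureter mesenchyme and the anterior part of somites, had preadipose levels of 859 ± 54.2 (Swiss 2), 939 ± 184 (Swiss 8), 525 ± 161 (Swiss 9) and 1579 ± 117 (Swiss 19), against non-adipogenic levels of 473 ± 11.6 (Swiss 3), 563 ± 209.6 (Swiss 5) and 787 ± 39.5 (Swiss 22). Swiss 19 was the highest line and Swiss 3 the lowest, 3.34-fold apart, and the classes overlapped because Swiss 9 lay among the non-adipogenic lines. The preadipose lines differed among themselves (limma F, adjusted p = 0.000379), and a second probe set also placed Swiss 19 highest, at 542, and Swiss 3 lowest, at 96.3, where it was not above background.

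The other T-box genes were called neither between classes nor in the F tests among lines, and Tbx3 alone had pair calls, 2 of 21. Tbx3, which acts in limb and mammary development, had 525 ± 89.2 in Swiss 9, the highest line, and 309 ± 105 in Swiss 3, the lowest, and was above background in every line. Tbx5, the forelimb factor, was above background in 6 of 7 lines, and Swiss 2 was the exception, with 49.3 ± 24.9. Tbx4, its hindlimb counterpart, was above background in Swiss 9 alone, at 95.3 ± 74.1, where the SD reached below background. Tbx20, a heart factor, was above background in Swiss 19, at 133 ± 4.53, and in Swiss 22, at 113 ± 22.3. Tbx2 was above background in no line.

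The TALE factors, homeodomain proteins that bind DNA together with HOX proteins, were above background in all lines, 5 of 5. Meis1, which marks the proximal limb bud, had preadipose levels of 519 ± 138 (Swiss 2), 506 ± 159 (Swiss 8), 675 ± 55.1 (Swiss 9) and 649 ± 52.5 (Swiss 19), against non-adipogenic levels of 1221 ± 207 (Swiss 3), 1043 ± 125 (Swiss 5) and 1189 ± 59.4 (Swiss 22). The lowest, median and highest array stood at 371, 627 and 736 on the 11 preadipose arrays, against 926, 1129.5 and 1459 on the 9 non-adipogenic arrays. All 11 preadipose arrays lay below all 9 non-adipogenic ones. Over lines, Meis1 averaged 587 ± 87.3 in preadipose lines (SD, n = 4 lines) and 1151 ± 94.9 in non-adipogenic lines (SD, n = 3 lines), 1.96-fold lower, with a log2 difference of -0.59 ± 0.079 (SE; limma, adjusted p = 0.0201). It was -0.73 within the dim and -0.50 within the bright arrays. Without 1 line the adjusted p was 0.0334 (Swiss 9) and 0.0248 (Swiss 19) but 0.0524 to 0.0958 for the 5 others, and it passed without any single array.

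The Meis1 call rested on 1 of 3 probe sets. The other Meis1 probe sets, both dimmer, gave log2 differences of -0.06 and -0.09, and the median of the 3 gave -0.08 (adjusted p = 0.774). On the dimmer of these, Swiss 3 and Swiss 22 were again the highest lines, at 220.3 and 211, while the other had 364 in Swiss 2 and 431 in Swiss 3 against 193 to 253 in the remaining lines.

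Meis2, the closest relative of Meis1, had preadipose levels of 2085 ± 246 (Swiss 2), 1991 ± 164 (Swiss 8), 1991 ± 231 (Swiss 9) and 2074 ± 24.7 (Swiss 19), against non-adipogenic levels of 2946 ± 198 (Swiss 3), 2343 ± 297 (Swiss 5) and 2119.99 ± 109 (Swiss 22). Swiss 3 stood above each of the 6 other lines in the pairwise tests, and the non-adipogenic lines differed (limma F, adjusted p = 0.00388), while the 4 preadipose lines lay within 1991 to 2085. The class difference of -0.21 ± 0.10 (SE) did not pass (adjusted p = 0.398). A second bright probe set gave -0.25 and the same highest line.

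Pbx2, a partner of MEIS and HOX proteins, had preadipose levels of 1267 ± 38.6 (Swiss 2), 1036 ± 73.97 (Swiss 8), 1119 ± 15.9 (Swiss 9) and 1216 ± 75.3 (Swiss 19), against non-adipogenic levels of 983 ± 157 (Swiss 3), 988 ± 27.1 (Swiss 5) and 1049 ± 3.00 (Swiss 22). No preadipose line mean on the normalized scale lay below a non-adipogenic one, though in scaled intensity Swiss 8 lay below Swiss 22. The ranges of single arrays overlapped, at 957 to 1303 in preadipose and 802 to 1084 in non-adipogenic lines. The other Pbx2 probe sets, both dimmer, did not separate the classes. One had a normalized level of 5.65 in Swiss 8 against 5.67 in Swiss 22, and the other gave a log2 class difference of -0.05, with Swiss 8 lowest. The ratio of class means was 1.15, and the log2 difference of 0.15 ± 0.064 (SE) did not pass (limma, adjusted p = 0.331). It was 0.20 within the dim and 0.14 within the bright arrays, and -0.23 with arrays centred on their medians, a scaling that shifted 500 genes of like level by -0.35. Meis3 had 395 ± 114 in Swiss 9, the lowest line, and 741 ± 99.6 in Swiss 3, the highest. Pbx3 had 2219 ± 272 in Swiss 8, the highest line, and 1754 ± 289 in Swiss 22, the lowest. On a second bright Pbx3 probe set Swiss 19 was the lowest line, at 1502. That one was called among all 7 lines (limma F over all probe sets, adjusted p = 0.000905), and the one used was not (0.161). Their log2 class differences were -0.04 and 0.10.

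Paired-type homeobox factors ran from genes far above background in all lines to genes above it in none. Shox2, needed for the proximal limb bones and the pacemaker of the heart in the mouse, had preadipose levels of 1613 ± 345 (Swiss 2), 2105 ± 218 (Swiss 8), 1524 ± 113 (Swiss 9) and 2115 ± 98.5 (Swiss 19), against non-adipogenic levels of 3268 ± 301 (Swiss 3), 3319 ± 425 (Swiss 5) and 3035 ± 31.5 (Swiss 22). The lowest, median and highest array stood at 1232, 1855 and 2261 on the 11 preadipose arrays, against 2951, 3062 and 3784 on the 9 non-adipogenic arrays. Every preadipose array was below every non-adipogenic array. The class means were 1839 ± 315 in preadipose lines (SD, n = 4 lines) and 3207 ± 151 in non-adipogenic lines (SD, n = 3 lines), 1.74-fold lower, with a log2 difference of -0.65 ± 0.10 (SE; limma, adjusted p = 0.0339). It was -0.83 within the dim and -0.46 within the bright arrays. Without 1 line it passed when Swiss 19 was left out (adjusted p = 0.0292) and not otherwise (0.0597 to 0.108), and it passed without any single array. A second, dimmer Shox2 probe set pointed the same way, with -0.46.

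**Figure D2:**
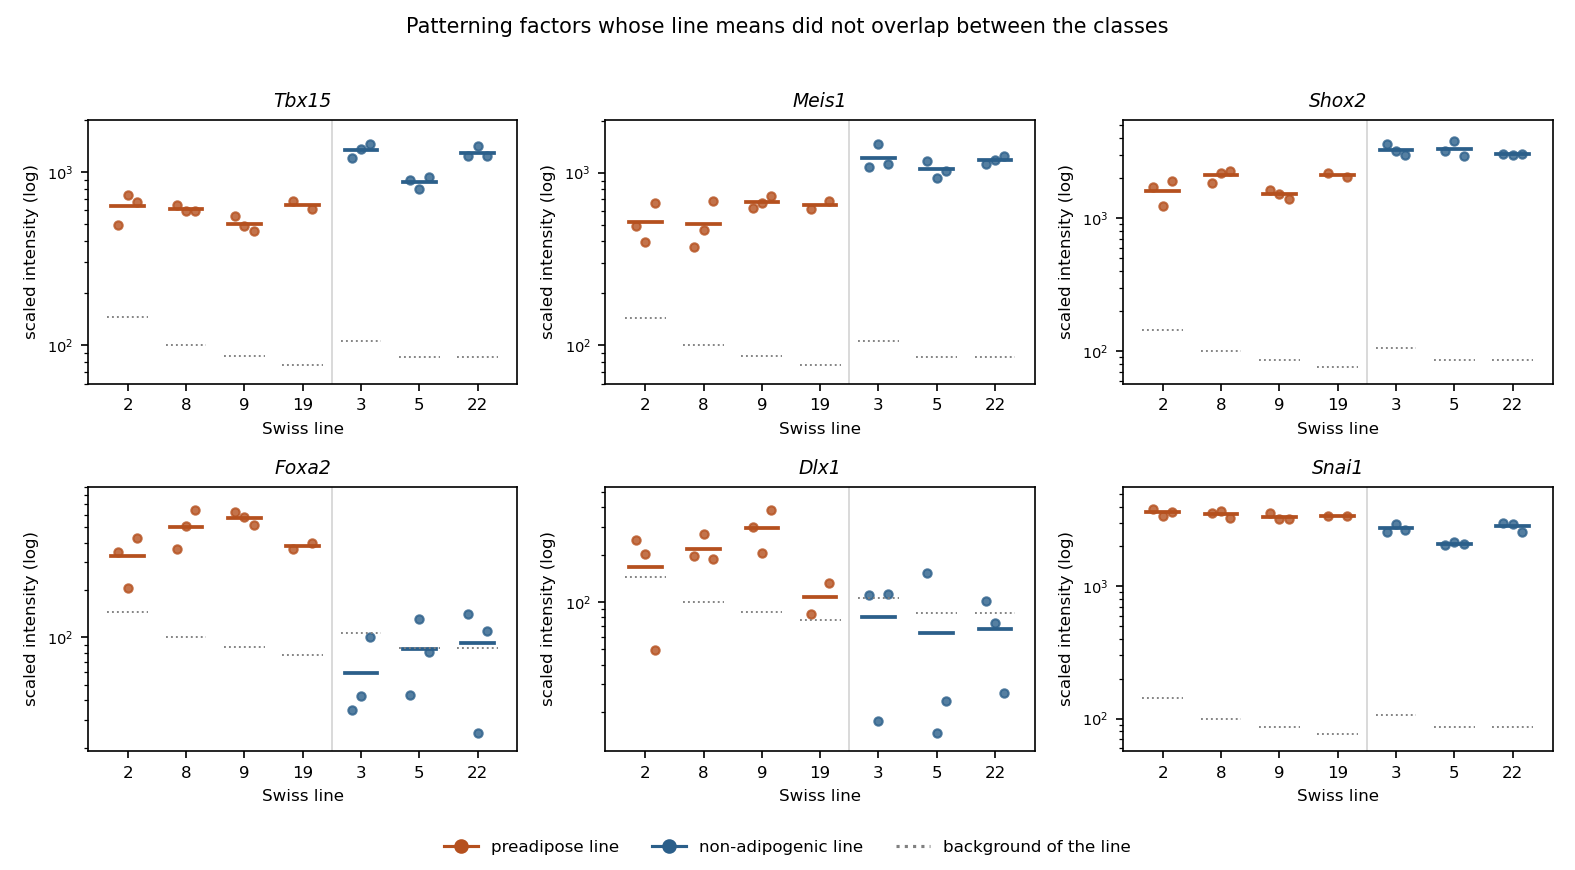
Scaled intensity (log axis) on each array (points) and its mean in each line (bars) for 6 of the 7 patterning factors above background in which line means separated by class (Pbx2 is not drawn). Preadipose lines are at left and non-adipogenic lines at right, and dotted lines mark the background of each line. Tbx15, Meis1 and Shox2 were lower and Snai1 and Foxa2 higher on every preadipose array than on every non-adipogenic one, while the Dlx1 arrays overlapped.

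Prrx1, a marker of limb bud mesenchyme, was bright in all lines, with preadipose levels of 7065 ± 407 (Swiss 2), 5765 ± 431 (Swiss 8), 10265 ± 813 (Swiss 9) and 6048 ± 154 (Swiss 19), against non-adipogenic levels of 6734 ± 445 (Swiss 3), 9019.8 ± 655 (Swiss 5) and 10959 ± 369 (Swiss 22). Swiss 9 and Swiss 22, which belong to different classes, were the highest, and Swiss 8 the lowest. The gene differed among preadipose lines (limma F, adjusted p = 1.33e-05) and among non-adipogenic lines (adjusted p = 0.000106), and the class difference of -0.30 ± 0.19 (SE) did not pass (adjusted p = 0.527). The 5 probe sets of Prrx1 that were above background in all lines did not order the lines alike. Swiss 19 was the lowest line on one of them, at 2178 ± 282, and the next highest after Swiss 22 on another, at 4954 ± 179.6. Swiss 2 was the highest line on the probe set where Swiss 19 was lowest, at 5081 ± 474, and Swiss 22 on the other, at 6128 ± 110.3. The log2 class difference ran from -0.39 to 0.12 over these 5 probe sets, with none called.

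**Figure D3:**
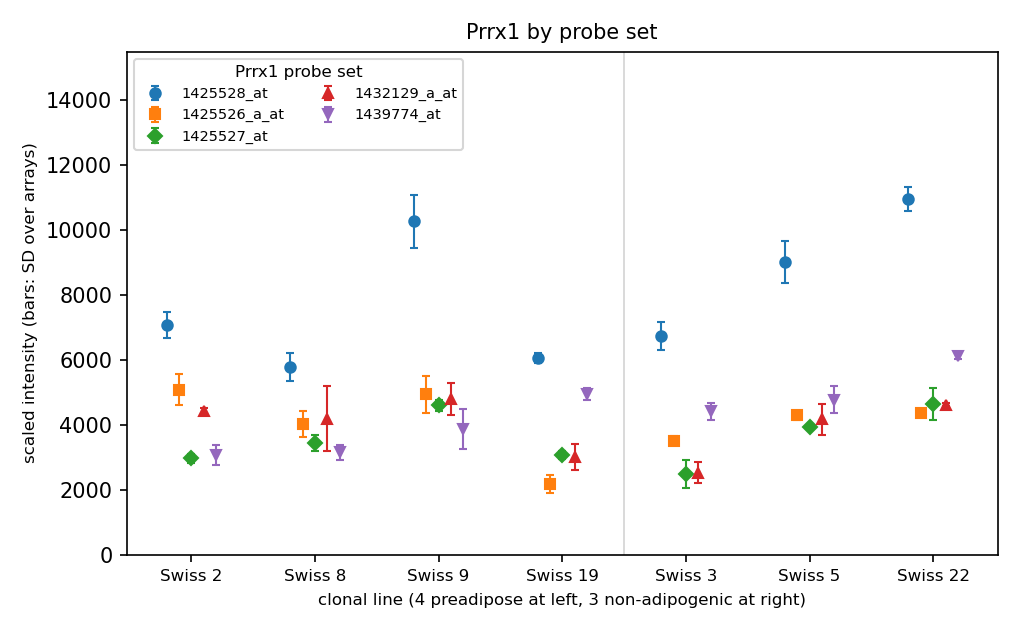
Scaled intensity of 5 Prrx1 probe sets (symbols) in each clonal line, as the mean with bars of 1 SD over 3 arrays, or 2 in Swiss 19. The 4 preadipose lines are at left. The probe sets rank the lines differently, and Swiss 19 has 2178 on one (squares) but 4954 on another (downward triangles).

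Prrx2, which overlaps with Prrx1 in limb and skull formation, had preadipose levels of 3208 ± 333 (Swiss 2), 2344 ± 189.8 (Swiss 8), 2293 ± 139 (Swiss 9) and 1911 ± 199.8 (Swiss 19), against non-adipogenic levels of 2602 ± 119.7 (Swiss 3), 2389 ± 147 (Swiss 5) and 2509 ± 56.8 (Swiss 22). Swiss 2 stood above all 6 other lines in pairwise tests, and the non-adipogenic lines did not differ at the threshold (limma F, adjusted p = 0.400 among them and 8.65e-05 among preadipose lines). Pitx1, the hindlimb determinant, was above background in Swiss 9, at 100.2 ± 74.6, against 131 ± 118 in Swiss 3 and 92.1 ± 19.6 in Swiss 22, with wide spreads. Alx1 and Alx4, which act in the face and skull, were above background in no line.

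The LIM homeobox factors were at or near background. Lhx2, which acts with Lhx9 in the distal limb mesenchyme, was above background in 5 of 7 lines and had 74.9 ± 59.9 in Swiss 2, the lowest line, and 189 ± 58.1 in Swiss 5, the highest. Lhx9 was above background in 6 lines and had 173 ± 65.2 in Swiss 2, the highest line, and 70.8 ± 19.8 in Swiss 22, the lowest. Lhx8, known from the forebrain and as a marker of mouse brown fat, was above background in no line. None of the 3 was called in any test.

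In the MSX, DLX and engrailed group, no gene passed the class test, and Dlx1 had line means that separated by class. Dlx1, a distal-less relative that acts in the face and forebrain, had preadipose levels of 168 ± 105 (Swiss 2), 219 ± 46.8 (Swiss 8), 297 ± 88.5 (Swiss 9) and 108 ± 34.4 (Swiss 19), against non-adipogenic levels of 80.4 ± 54.5 (Swiss 3), 63.9 ± 77.7 (Swiss 5) and 67.1 ± 38.04 (Swiss 22). It was above background in all 4 preadipose lines and in no non-adipogenic line. The lowest, median and highest array stood at 49.2, 204 and 383 on the 11 preadipose arrays, against 14.7, 73.1 and 153 on the 9 non-adipogenic arrays, so single arrays overlapped. Over lines, Dlx1 averaged 198 ± 80.1 in preadipose lines (SD, n = 4 lines) and 70.5 ± 8.75 in non-adipogenic lines (SD, n = 3 lines), and against background the preadipose mean was at least 2.14-fold higher. The log2 difference of 0.30 ± 0.10 (SE) did not pass (limma, adjusted p = 0.207). It was 0.42 within the dim and 0.09 within the bright arrays.

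Dlx2, which neighbours Dlx1 in the genome and is often expressed with it, had preadipose levels of 229.9 ± 118 (Swiss 2), 353 ± 107 (Swiss 8), 361 ± 45.03 (Swiss 9) and 334 ± 188 (Swiss 19), against non-adipogenic levels of 151 ± 39.5 (Swiss 3), 265 ± 115 (Swiss 5) and 193 ± 49.1 (Swiss 22). Its line means overlapped between the classes, since Swiss 2 lay below Swiss 5, and it passed in 2 of 21 pairs of lines but in no F test or class test. Msx1, a factor of the progress zone under the limb ridge, had preadipose levels of 302 ± 221 (Swiss 2), 223 ± 185 (Swiss 8), 176 ± 166 (Swiss 9) and 471 ± 9.4 (Swiss 19), against non-adipogenic levels of 467 ± 172 (Swiss 3), 445 ± 139 (Swiss 5) and 302 ± 108 (Swiss 22). Its lowest line mean was in Swiss 9 and its highest in Swiss 19, both preadipose, with SDs of up to 221. En1, known from the ventral limb ectoderm and a dermal fibroblast lineage, was above background in every line, with 789.99 ± 83.95 in Swiss 19, the highest line, and 535 ± 310.1 in Swiss 2, the lowest. Dlx3 was above background in 5 lines, with 225 ± 142 in Swiss 2, the highest line, and 36.6 ± 16.2 in Swiss 19, the lowest. Dlx5 was above background in Swiss 19, at 83.7 ± 56.9, and in Swiss 3, at 159 ± 46.6, and Msx2 in Swiss 5 alone, at 100.9 ± 71.7.

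All 5 forkhead factors differed among the 7 lines (limma F, 5 of 5 called; 35.8% of all genes were). Foxa2, a pioneer factor of endoderm, notochord and floor plate, had preadipose levels of 328 ± 113 (Swiss 2), 503 ± 139 (Swiss 8), 576 ± 53.7 (Swiss 9) and 381 ± 22.4 (Swiss 19), against non-adipogenic levels of 59.1 ± 36.00 (Swiss 3), 84.7 ± 43.7 (Swiss 5) and 92.1 ± 60.4 (Swiss 22). The lowest, median and highest array stood at 207, 430.3 and 641 on the 11 preadipose arrays, against 24.8, 80.3 and 142 on the 9 non-adipogenic arrays. All preadipose arrays lay above all non-adipogenic arrays, and among non-adipogenic lines only Swiss 22 was just above background. The class means were 447 ± 113 in preadipose lines (SD, n = 4 lines) and 78.6 ± 17.3 in non-adipogenic lines (SD, n = 3 lines), and with Swiss 3 and Swiss 5 set to their background the preadipose mean was at least 4.73-fold higher. The log2 difference was 0.73 ± 0.11 (SE; limma, adjusted p = 0.0288), 0.89 within the dim and 0.59 within the bright arrays. Without 1 line it passed for Swiss 2, Swiss 9 and Swiss 19 (0.0325 to 0.0494) and not for the 4 others (0.087 to 0.101), and without replicate 3 of Swiss 2 the adjusted p was 0.0503. Within the preadipose class, Swiss 9 exceeded Swiss 2 (limma F among them, adjusted p = 0.0419).

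Foxd1, known from the stroma of the developing kidney, had the widest range of normalized log2 line means of the 46, 1.31. It had preadipose levels of 863 ± 92.8 (Swiss 2), 942 ± 127 (Swiss 8), 291 ± 62.4 (Swiss 9) and 567 ± 118 (Swiss 19), against non-adipogenic levels of 1492 ± 118 (Swiss 3), 797 ± 37.2 (Swiss 5) and 969.8 ± 70.4 (Swiss 22). Swiss 9 was the lowest line and Swiss 3 the highest, 5.13-fold apart. Swiss 9, Swiss 19 and Swiss 3 each differed from all 6 other lines in pairwise tests, whereas no pair among Swiss 2, Swiss 8, Swiss 5 and Swiss 22 passed. Foxd1 differed among preadipose lines (limma F, adjusted p = 1.92e-06) and among non-adipogenic lines (adjusted p = 6.67e-05). The class difference of -0.44 ± 0.23 (SE) did not pass (adjusted p = 0.426).

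Foxc2, a factor of the axial skeleton and of lymphatic vessels that also acts in mouse fat cells, had preadipose levels of 195 ± 132 (Swiss 2), 569.7 ± 243 (Swiss 8), 386 ± 115 (Swiss 9) and 365 ± 19.9 (Swiss 19), against non-adipogenic levels of 27.3 ± 12.8 (Swiss 3), 144 ± 75.7 (Swiss 5) and 205 ± 25.7 (Swiss 22). Swiss 8 was the highest line and Swiss 3, the lowest, was not above background, at least 5.38-fold apart. Foxc2 averaged 379 ± 153 in preadipose lines (SD, n = 4 lines) and 126 ± 90.5 in non-adipogenic lines (SD, n = 3 lines), at least 2.50-fold higher, but Swiss 2 lay below Swiss 22, and the log2 difference of 0.48 ± 0.18 (SE) did not pass (limma, adjusted p = 0.244). Foxc1, its relative in the same tissues, had 588 ± 39.6 in Swiss 22, the highest line, and 355 ± 51.9 in Swiss 3, the lowest, and differed among non-adipogenic lines (limma F, adjusted p = 0.0150). A second, dimmer Foxc1 probe set, above background in all lines, also had Swiss 3 lowest, at 133. It was not called among all 7 lines (limma F over all probe sets, adjusted p = 0.159). Foxf2, a factor of gut and palate mesenchyme, had 362 ± 40.7 in Swiss 8, the highest line, and 146 ± 37.2 in Swiss 5, the lowest. It differed among preadipose lines (limma F, adjusted p = 0.0149), while the other Foxf2 probe set was above background in no line.

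**Figure D4:**
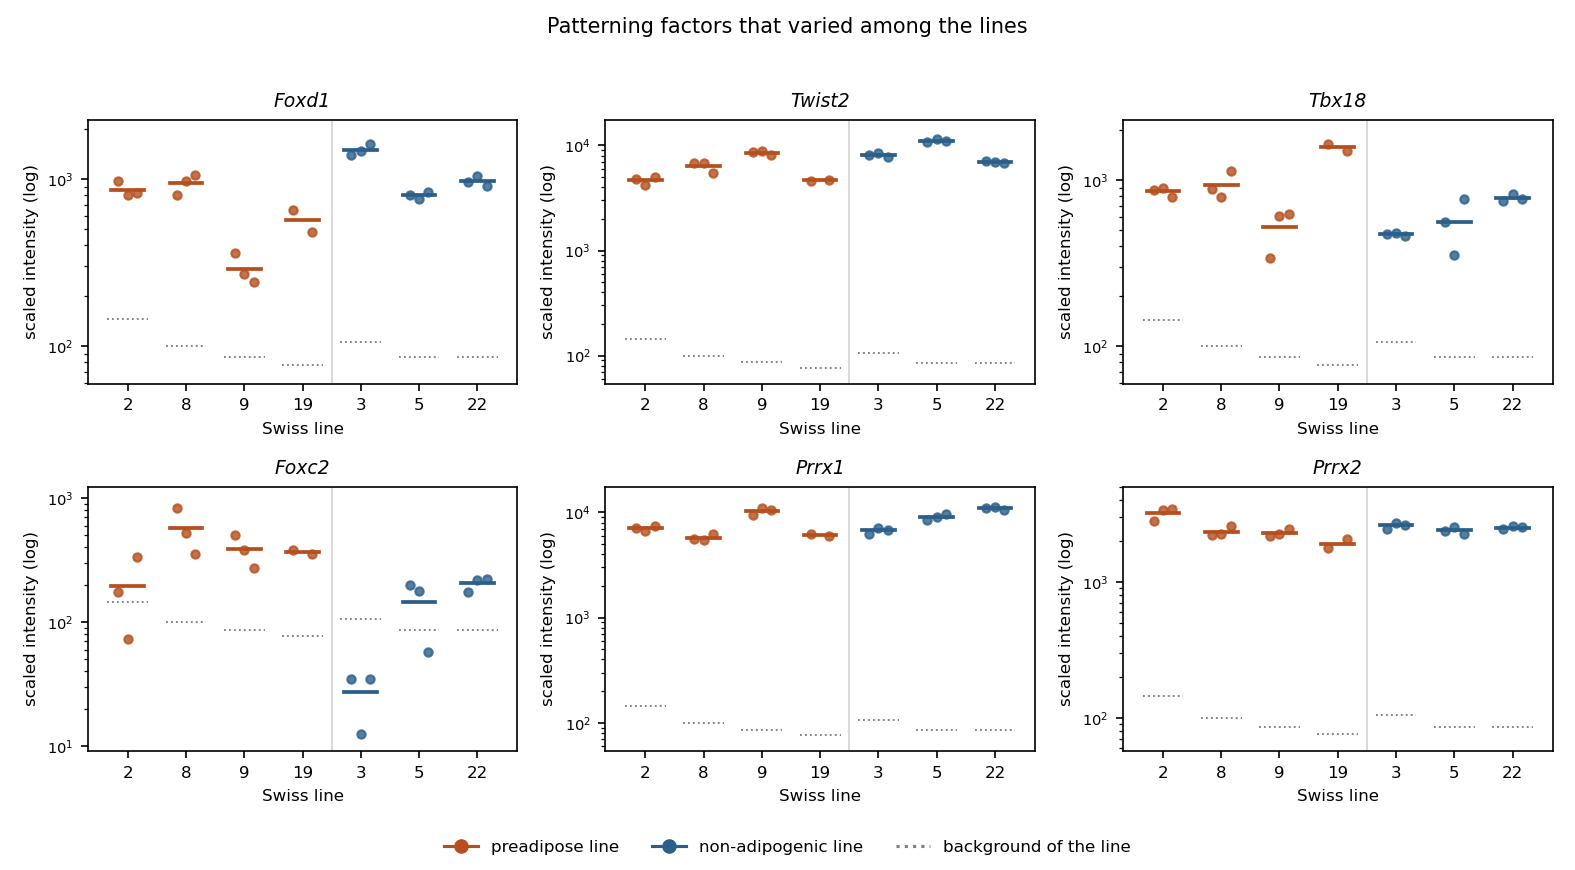
Scaled intensity (log axis) on each array (points), with the mean of each line (bars) and its background (dotted), for 6 patterning factors that varied among lines without a called class difference. Preadipose lines are at left and non-adipogenic lines at right. Foxd1 was lowest in Swiss 9 and highest in Swiss 3, and Tbx18 stood highest in Swiss 19.

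The stretch of 250 bases before the annotated start is shown for the called genes with an entry and for Foxd1, the gene of widest range, because all of these differ between lines at the RNA level. Sequences are from RefSeq on GRCm38.p6, a genome of another mouse strain than the Swiss lines, written 5′ to 3′ on the gene's strand, and 31 of the 46 genes matched the table. For Foxa2, the most upstream of 3 listed starts is given.
Shox2 (chr3:66981772-66982021, minus strand): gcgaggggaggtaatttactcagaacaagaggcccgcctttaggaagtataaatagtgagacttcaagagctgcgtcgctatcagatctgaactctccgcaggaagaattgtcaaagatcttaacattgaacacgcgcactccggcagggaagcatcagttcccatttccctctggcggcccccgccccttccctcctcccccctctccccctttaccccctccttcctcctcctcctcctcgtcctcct
Meis1 (chr11:19018970-19019219, minus strand): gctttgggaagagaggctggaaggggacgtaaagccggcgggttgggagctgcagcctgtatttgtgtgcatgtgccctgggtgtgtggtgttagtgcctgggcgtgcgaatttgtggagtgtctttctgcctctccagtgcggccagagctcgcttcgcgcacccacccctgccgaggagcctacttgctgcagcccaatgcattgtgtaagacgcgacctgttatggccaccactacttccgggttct
Foxa2 (chr2:148046970-148047219, minus strand): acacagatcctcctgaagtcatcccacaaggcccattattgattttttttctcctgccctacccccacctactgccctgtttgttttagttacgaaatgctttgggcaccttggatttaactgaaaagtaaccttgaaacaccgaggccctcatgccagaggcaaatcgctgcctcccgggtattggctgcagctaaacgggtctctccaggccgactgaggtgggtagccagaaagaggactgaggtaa
Foxd1 (chr13:98353995-98354244, plus strand): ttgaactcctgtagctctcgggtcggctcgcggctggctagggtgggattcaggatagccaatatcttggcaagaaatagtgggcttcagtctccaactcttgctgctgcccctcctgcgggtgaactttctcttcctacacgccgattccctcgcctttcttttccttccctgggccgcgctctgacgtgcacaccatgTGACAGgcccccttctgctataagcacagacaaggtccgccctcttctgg
Capitals mark a match to any of 5 short motifs searched on both strands, namely CAGGTG, bound by SNAI and other E-box factors, TGACAG, bound by MEIS factors, TAATTA of homeodomain proteins, AGGTGT of T-box factors and TGTTTA of forkhead factors, of which CAGGTG and AGGTGT can overlap. Foxd1 had 1 match, to TGACAG, 50 bases before its start, and the other 3 stretches had none of these letters. TGACAG occurred in 6 of 31 patterning promoters and in 15.86% of 32851 promoters, CAGGTG in 3 (17.22% of all), TAATTA in 3 (4.84%), and AGGTGT and TGTTTA in 1 each (11.83% and 12.03%). The 3 with CAGGTG were Pbx2, Msx1 and Snai1. A match describes letters and is not evidence of binding. The median GC content was 62.4% in the 31 and 52.4% in all promoters. The 31 genes entered with 1 start each, the most upstream. The 32851 promoters were all listed starts, several for some genes, so the sets compared are unlike. Promoters on 1 chromosome were left out of both.

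Sine oculis factors and their EYA cofactors, which act in muscle, kidney and sense organ precursors, gave no class call. Six5 had preadipose levels of 518 ± 64.3 (Swiss 2), 248 ± 154 (Swiss 8), 178 ± 95.4 (Swiss 9) and 466 ± 147 (Swiss 19), against non-adipogenic levels of 549 ± 49.7 (Swiss 3), 277 ± 62.7 (Swiss 5) and 378 ± 104 (Swiss 22). It was high in Swiss 2, Swiss 19 and Swiss 3 and low in Swiss 9 and Swiss 8, so the spread ran across the classes, and preadipose lines differed (limma F, adjusted p = 0.0124). Six4 had preadipose levels of 605 ± 133 (Swiss 2), 422 ± 101 (Swiss 8), 753 ± 123 (Swiss 9) and 651 ± 166 (Swiss 19), against non-adipogenic levels of 381 ± 85.6 (Swiss 3), 556 ± 25.9 (Swiss 5) and 474 ± 78.1 (Swiss 22), and preadipose lines differed at an adjusted p of 0.0496. Six2, which keeps kidney progenitors undifferentiated, was highest in Swiss 2, at 331 ± 67.8, was not above background in Swiss 9, at 83.6 ± 45.5, and lay between 173 and 178 in the 3 non-adipogenic lines (adjusted p among preadipose lines 0.00856).

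Of the EYA cofactors, Eya1 was above background in every line and had 509 ± 162 in Swiss 8, the lowest line, and 758 ± 285 in Swiss 3, the highest. Eya4 was above background in all lines but Swiss 9 and had 42.96 ± 34.6 in Swiss 9, the lowest line, and 164 ± 12 in Swiss 3, the highest. Eya2 was above background in no line.

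Among bHLH factors, Twist2 separated more pairs of lines than any other gene of the group. Twist2, a factor of dermal and limb mesenchyme, had preadipose levels of 4669 ± 393 (Swiss 2), 6371 ± 788 (Swiss 8), 8538 ± 327 (Swiss 9) and 4648 ± 22.4 (Swiss 19), against non-adipogenic levels of 8139.9 ± 337 (Swiss 3), 10995 ± 376 (Swiss 5) and 6931 ± 127 (Swiss 22). Swiss 5 was the highest line and Swiss 19 and Swiss 2 the lowest, 2.37-fold apart at most, and 17 of 21 pairs of lines differed. The class difference of -0.52 ± 0.21 (SE) did not pass (limma, adjusted p = 0.278), and the Swiss 9 mean exceeded that of Swiss 22. Twist1, its relative, was not called among the lines (limma F, adjusted p = 0.684), with 974 ± 166 in Swiss 22, the highest line, and 763 ± 163 in Swiss 3, the lowest. Tcf21, a factor of epicardium and visceral mesenchyme, had 286 ± 102 in Swiss 9, the highest line, and 107 ± 42.1 in Swiss 19, the lowest, and was called among preadipose lines (limma F, adjusted p = 0.0444) but not among all 7 (0.0930). A second Tcf21 probe set was above background in no line. Hand1, of heart and limb, had 301 ± 249 in Swiss 2, the highest line, and 127 ± 78.5 in Swiss 5, the lowest. A second Hand1 probe set was above background in Swiss 9 alone, at 102. Hand2, which acts in the posterior limb bud, was above background in Swiss 8, at 144 ± 27.1, and in Swiss 3, at 131 ± 119.

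The SNAI factors, zinc finger repressors of epithelial genes, were bright in all lines. Snai1 had preadipose levels of 3654 ± 224 (Swiss 2), 3525 ± 225 (Swiss 8), 3347 ± 190.2 (Swiss 9) and 3415 ± 14.7 (Swiss 19), against non-adipogenic levels of 2745 ± 200.00 (Swiss 3), 2094 ± 47.5 (Swiss 5) and 2843 ± 237 (Swiss 22). All preadipose arrays, at 3234 to 3868, lay above all non-adipogenic arrays, at 2053 to 2992, and Swiss 5 was the lowest line. Snai1 averaged 3485 ± 134 in preadipose lines (SD, n = 4 lines) and 2561 ± 407 in non-adipogenic lines (SD, n = 3 lines), 1.36-fold higher. The log2 difference of 0.39 ± 0.097 (SE) did not pass over all genes (limma, adjusted p = 0.102). It was 0.24 within the dim and 0.38 within the bright arrays, and it turned to -0.12 with arrays centred on their medians, a scaling that shifted 500 genes of like level by -0.53. Snai2 had preadipose levels of 4409.9 ± 419 (Swiss 2), 3235 ± 403 (Swiss 8), 3014 ± 527 (Swiss 9) and 3132 ± 63.2 (Swiss 19), against non-adipogenic levels of 4245 ± 28.4 (Swiss 3), 3922 ± 56.9 (Swiss 5) and 3718 ± 59.9 (Swiss 22). On this probe set Swiss 2 and Swiss 3 were the highest lines, and the preadipose lines differed (limma F, adjusted p = 0.00226). A second, dimmer Snai2 probe set, above background in all lines, ordered them differently. Swiss 5 (874) and Swiss 22 (786) were highest on it, and Swiss 2 had 663. It was not called among all 7 lines (limma F over all probe sets, adjusted p = 0.662). The probe sets used for Msx1, Snai2, Tbx3 and Pbx3 are of types that can also bind related transcripts.

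**Figure D5:**
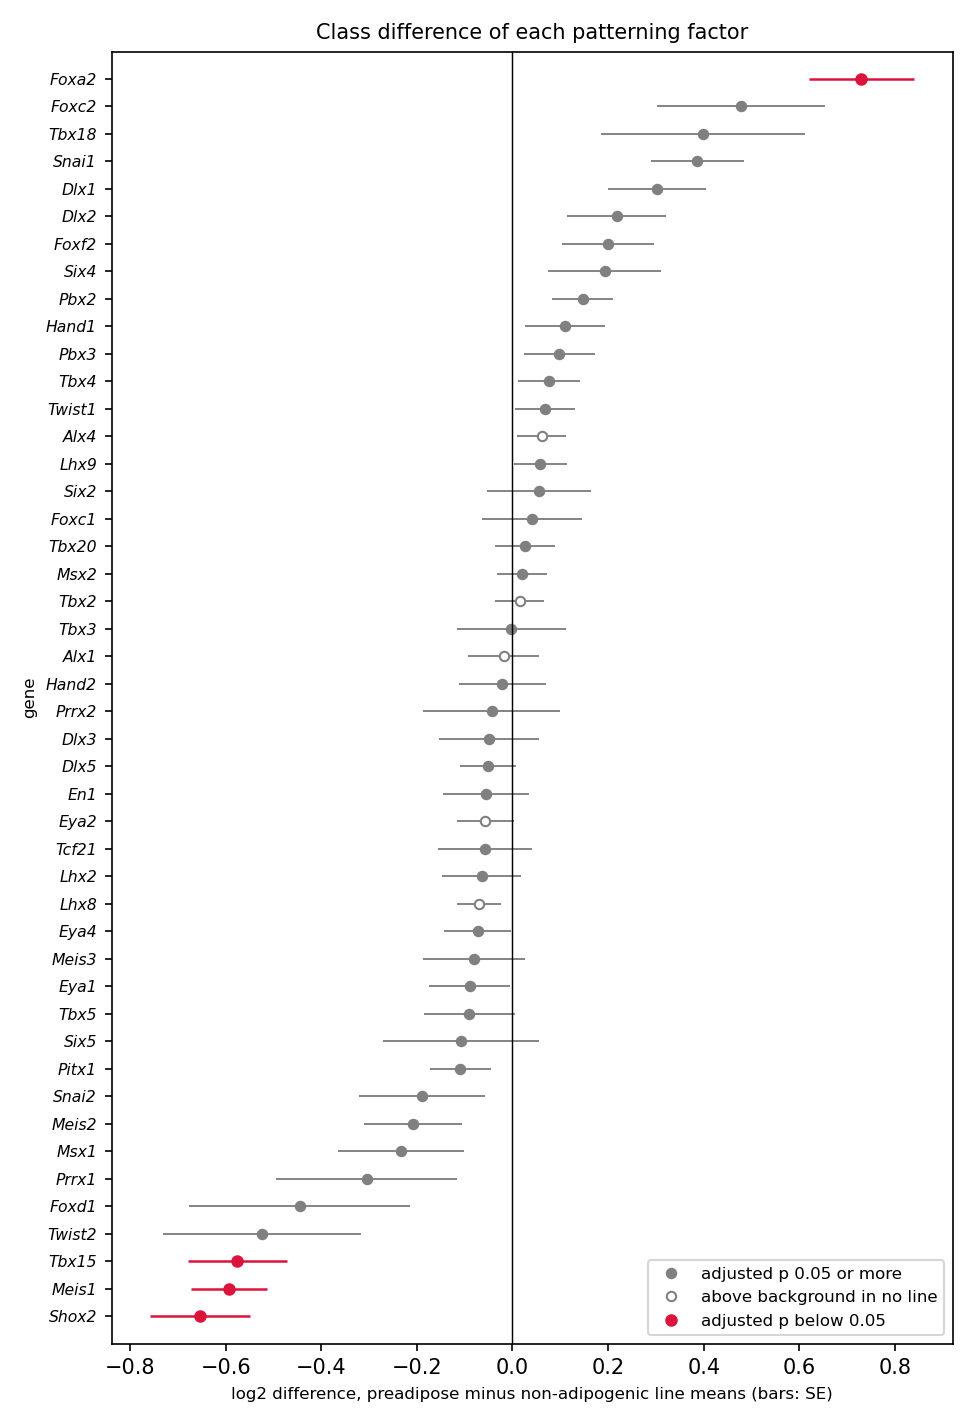
Log2 difference between the means of 4 preadipose and 3 non-adipogenic lines (points, with bars of 1 SE) for each of the 46 patterning factors, sorted by size. Red points passed an adjusted p of 0.05 (Foxa2, Tbx15, Meis1 and Shox2), and open points mark the 5 genes above background in no line.

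The tests among clones, which rest on arrays, called more genes than the class test, which rests on lines. Among all 7 lines, 20 of the 46 genes were called (limma F), against 35.8% of all genes. Restricted to genes above background in at least 1 line, these were 48.8% of 41 patterning factors and 42.9% of 15169 genes. Among preadipose lines 14 of 46 were called, with 23.2% of all genes, and among non-adipogenic lines 7 of 46, with 16.4%. The shares of the 46 were 43.5% among all 7 lines, 30.4% among preadipose and 15.2% among non-adipogenic lines. With Swiss 2, Swiss 8 and Swiss 9 alone, all on dim arrays, 11 were called. Without replicate 2 of Swiss 8 the preadipose count was 9. With Swiss 5 and Swiss 22 alone, both on bright arrays, 3 were called. Shares of all genes are not given for these smaller fits, so their counts are not read as a trait of the group. Of each gene's sum of squares, the median share between classes was 9.22% over the 46 and 6.74% over all genes, and that between lines of a class 31.5% and 32.5%.

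On the probe set used for each gene, normalized line means were separated by class for 8 of the 46. These were 4 higher (Pbx2, Dlx1, Foxa2 and Snai1) and 4 lower in preadipose lines (Tbx15, Meis1, Shox2 and, below background, Lhx8). Over all genes such separation held for 13.9%, 6.39% higher and 7.53% lower. Of 966 tests of a gene in a pair of lines, 187 passed, against 13.9% over all genes. Swiss 8 and Swiss 3 differed in the most genes, 16 of 46 (25.6% of all genes), and Swiss 5 and Swiss 22 in the fewest, 3 of 46, namely Tbx15, Twist2 and Snai1 (1.54% of all genes). Within the preadipose class, Swiss 2 differed from Swiss 9 in 10 genes (13.6% of all genes), from Swiss 8 in 7 (9.54%) and from Swiss 19 in 4 (13.5%). Swiss 8 differed from Swiss 9 in 5 (5.15%) and from Swiss 19 in 4 (11.3%), and Swiss 9 differed from Swiss 19 in 5 (9.72%).

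Other genes of the same pathways were counted in 3 lists, beside the 1.53% of all genes called between the classes. Of 53 other patterning factors measured, 2 were lower and none higher in preadipose lines. Hic1, a zinc finger repressor that marks mesenchymal progenitors in the mouse, averaged 1027 ± 144 in preadipose and 2318 ± 107 in non-adipogenic lines, 2.26-fold lower (limma, adjusted p = 0.00505). Pknox1, a TALE factor that pairs with PBX proteins, averaged 952 ± 46.8 in preadipose and 1409 ± 64.7 in non-adipogenic lines, 1.48-fold lower (adjusted p = 0.0233). Hic1 passed without any 1 line, and Pknox1 only when the line left out was Swiss 19 (adjusted p = 0.0337, otherwise 0.0557 to 0.102).

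Of 19 patterning signals and retinoid enzymes, 1 was lower and 1 higher. Wnt5a, a ligand of limb outgrowth, averaged 375 ± 106 in preadipose and 959 ± 47.8 in non-adipogenic lines, 2.56-fold lower (limma, adjusted p = 0.0153, and 0.0542 to 0.0797 without Swiss 5, Swiss 3 or Swiss 22). A dim Wnt5a probe set gave a log2 difference of -0.0072 and the other 3 gave -0.50 to -0.74. Cyp26b1, which breaks down retinoic acid, averaged 2719.8 ± 234 in preadipose and 1289 ± 204 in non-adipogenic lines, 2.11-fold higher (adjusted p = 0.0109). Of 17 partners and cofactors, Tle3, a Groucho corepressor that forkhead and homeodomain proteins recruit, was the 1 called. It averaged 1219 ± 82.8 in preadipose and 2704 ± 218 in non-adipogenic lines, 2.22-fold lower (adjusted p = 0.00505), while its 3 dimmer probe sets gave log2 differences of -0.09 to -0.25 against -0.87 for the one used. With arrays centred on their medians or not normalized none of Hic1, Pknox1, Wnt5a, Cyp26b1 and Tle3 was called (adjusted p from 0.883 to 0.910), and none was within the bright arrays (0.209 to 0.445). Within the dim arrays Hic1 (0.0535), Cyp26b1 (0.0663) and Pknox1 (0.114) did not pass either. Wnt5a also lost its call with the spike level as a covariate (0.0593), Tle3 with the median of its probe sets (0.0536) and Pknox1 with both (0.0743 and 0.420), and every one of these values kept its direction. Pknox1 lost its call in 8 alternatives besides those that left out a line or an array, not all of them named here. Medians of the log2 difference were -0.0082, -0.01 and -0.17 for the 3 lists, and 0.0033 for all genes.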

How the data were processed

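RNA of 20 samples from 7 clonal Swiss 3T3 lines was hybridized to 1 mouse 3′ expression array each. The authors deposited linear intensity values per probe set, and how they summarized and scaled them is not given in the sources used here; no detection calls were used. There were 45101 probe sets, including 64 controls, and 0 sample columns were left unused. Gene symbols came from the platform annotation: 34945 probe sets had 1 symbol, 932 several and 9160 were not named here. Each gene's value is that of its probe set of highest mean, out of those with 1 symbol.

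From the deposited intensity values, log2(intensity + 32) was taken here, and arrays were quantile-normalized because log2 medians spanned 0.607, over the limit of 0.2. Scaled intensity sets each array's mean, with 2% trimmed at each end, to 500. Background was the 95th percentile of 27 unspiked controls. Fold values divide the class means of scaled intensity, with lines of the dimmer class not above background set to it ("at least"). The number of arrays limits the precision.

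The classes were compared on 7 line means with limma 3.58.1 in R 4.3.3, and lines with moderated F tests and 21 pairwise contrasts on 20 arrays. All p-values were adjusted by Benjamini-Hochberg over 18193 genes, within each contrast for pairs, at 0.05. Fits were tested on simulated data. Alternatives covered the pseudocount, normalization, scaling, filter, probe set, replicate number, arrays and lines left out, and array brightness, split at a 1.62-fold gap in 9 spike probe sets.

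The 46 genes and the other lists were chosen with earlier results of these data known. All 46 are accounted for; class differences are printed for called genes and for those above background whose line means did not overlap, values in every line for these and for 12 others with the largest range of line means, the lowest and highest line otherwise, and called genes of the other lists. Class differences of Tbx18, Foxd1, Foxc2, Twist2, Prrx1 and Meis2 were added after their values were seen.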

Additional observations from a re-analysis of the deposited data

Results flagged for a closer look

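Of 41 patterning factors above background in at least 1 line, 1 met Dixon's 95% critical value for 4 values among the preadipose lines. Dlx5, a distal-less factor of bone and face, had a normalized log2 level of 5.17 in Swiss 2, against 5.26 to 5.27 in the other 3 preadipose lines, a gap of 0.913 of the whole range. The range is narrow and inside the spread between arrays: scaled levels were 76.2 ± 113 (Swiss 2), 97.1 ± 91.96 (Swiss 8), 81.5 ± 30.7 (Swiss 9) and 83.7 ± 56.9 (Swiss 19), and Dlx5 was above background only in Swiss 19 among these. Swiss 2 is thus not shown to differ from the other lines, and such a rule picks about 1 in 20 groups by chance.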

How the results depend on the processing

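The 4 class calls among the 46 genes stayed at 4 with a pseudocount of 8, without genes below background in all lines, and with the replicate block, and were 3 with every probe set tested and with brightness as a block. They were 2 with a larger pseudocount or the median of probe sets, 1 with scaling before the pseudocount, 0 with arrays centred on their medians or not normalized, within the dim arrays, within the bright arrays or with the spike level as a covariate, and 7 with line as a random block. In an alternative added after the data were seen, the brightness block with only dim Swiss 3 arrays, 1 was called. Leaving out 1 array or 1 line gave 0 to 4. Of all genes, 279 were called; the count was 421 without genes below background in all lines, 124 with the spike covariate, 100 with scaling before the pseudocount, 7 with centring, 2 without normalization, 0 within the bright arrays, 2061 with the random block and 55 to 470 without 1 line. The cause was not tested. Among all 7 lines, 20 genes became 36 with centring and 36 without normalization; leaving out 1 array gave 19 to 22. Among preadipose lines, 14 became 34 and 32, 8 with scaling before the pseudocount and 9 with the spike covariate, 9 to 16 without 1 array. Among non-adipogenic lines, 7 became 25 and 32, 3 with Swiss 5 and Swiss 22 alone, 6 to 9 without 1 array. The 187 pair calls became 419 and 468, 162 to 198 without 1 array. Counts over all genes in the F tests among lines also moved in some alternatives. Shares of all genes are not given beside these counts, which are therefore not read as a trait of the group. With centring and without normalization Pbx2 turned to -0.23 and -0.36 and Snai1 to -0.12 and -0.24, while the median of all genes shifted to -0.06 and -0.19; relative to 500 genes of like level both stayed higher, by 0.12 and 0.41. Replicate numbers did not pair the samples: correlations of deviations between arrays of different lines with the same number ran from -0.0385 to 0.0512 over 57 pairs. The replicate block gave 4 class calls, 20 among all lines, 12 among preadipose and 7 among non-adipogenic lines, and 179 pair calls.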
